A study of Homo sapiens with 4 samples.

Results

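Oxidative phosphorylation (OXPHOS) genes were taken from the gene table by symbol, as those that start with NDUF, UQCR, ATP5 or COX and a digit, together with SDHA, SDHB, SDHC, SDHD and CYC1. Of 41507 genes in the table, 247 had such a symbol and 101 of these had a value above 0. The 101 genes were 76 subunit genes (37 of complex I, 4 of complex II, 9 of complex III, 11 of complex IV and 15 of complex V), 19 genes of assembly and other factors, 4 paralogs of subunits and 2 readthrough genes. The RNA came from 2 established lines of diffuse large B-cell lymphoma (DLBCL), SU-DHL-5 and Toledo. Each line gave 1 sample in DMSO, the vehicle, and 1 sample in JQ1, a small molecule that displaces bromodomain and extra-terminal (BET) proteins from acetylated chromatin. The labels give JQ1 at 1 µM and 6 h of treatment, and the study's text gives a longer time. Each sample had 2 libraries, and the sources used here do not say what separates them, and their mean stands for the sample. With 1 sample per condition nothing could be tested across samples. In place of a p-value, the values of the 2 libraries are shown for many of the genes, and a ratio alone for others.

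OXPHOS is the route by which the inner mitochondrial membrane turns the oxidation of NADH and succinate into ATP. Complex I (NADH dehydrogenase) and complex II (succinate dehydrogenase) pass electrons to ubiquinone, complex III passes them on to cytochrome c, and complex IV (cytochrome c oxidase) passes them to oxygen. Complexes I, III and IV pump protons, and complex V (ATP synthase) uses the proton gradient to make ATP. All subunits of complex II and most subunits of the other complexes are encoded in the nucleus, and assembly factors build the complexes without being part of them. Nuclear OXPHOS genes are known targets of the factors NRF1, GABPA, YY1 and MYC, and BET proteins are known coactivators of MYC.

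Values are RPKM (reads scaled to the gene's length and to the library's mapped reads), so a level is a share of its library, and fewer cells expressing a gene and less RNA per cell cannot be told apart. The ratio used throughout is log2((JQ1 + 0.1)/(DMSO + 0.1)) of the means of the 2 libraries. A gene was called lower or higher where both libraries of one condition lay outside both libraries of the other and the ratio was at least 0.5 in size, which is a 1.41-fold change. The calls were read against the 9521 genes with a mean of at least 1 RPKM, which include all 76 subunit genes. The libraries held 14617583 to 17679831 mapped reads, with 1.59% to 1.90% of the reads on genes falling on the 76 subunit genes. All 5 B-cell markers examined (CD79A, CD79B, MS4A1, PAX5 and CD22) were at 2.99 RPKM or more in every library, and the 6 markers of T cells, myeloid cells, fibroblasts and epithelium were at 2.72 RPKM or less. The lower bound of 2.99 was CD22 in Toledo with JQ1. The upper bound of 2.72 was COL1A1, at 2.29 and 2.72 RPKM in the DMSO libraries of Toledo and at 0.228 and 0.397 in its JQ1 libraries. In SU-DHL-5 COL1A1 was at 0.0537 RPKM or less. HEXIM1, a gene known to rise under BET inhibition, was at 4.35 and 3.89 RPKM in the DMSO libraries of SU-DHL-5 and at 22.4 and 22.9 in its JQ1 libraries, and at 4.04 and 3.94 against 23.9 and 24.5 in Toledo. MYC, the other gene listed as a check of the JQ1 response, had ratios of -0.29 (SU-DHL-5) and 0.031 (Toledo) and was called in neither line. The study reports MYC mRNA lower with JQ1 in both lines by qPCR.

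The subunit genes as a group stood close to all genes, and the calls were few and in their majority lower with JQ1. In SU-DHL-5 the median ratio of the 76 subunit genes was 0.052, against 0.012 for all genes, and the highest ratio was 0.68. In Toledo the median was -0.088, against -0.065 for all genes, and the ratios ran from -1.43 to 0.47. Of the 76 genes, 5 were called lower and 2 higher in SU-DHL-5, where 14.1% of all genes were called lower and 11.9% higher. In Toledo 8 were called lower and none higher, where 19.1% and 9.05% of all genes were. The called share of the subunits was thus 6.58% and 10.5% for lower calls and 2.63% and 0% for higher calls, below the share of all genes in each case. The 2 sets were not matched on level. The median level in DMSO was 174 RPKM (SU-DHL-5) and 146 RPKM (Toledo) for the subunit genes, against 9.16 and 9.31 for all genes. The part of level in these shares was not tested. Without the second DMSO library of Toledo the count of lower calls in that line was 13. At a ratio of at least 1, no subunit gene was lower or higher in SU-DHL-5, where 5.43% and 1.73% of all genes were, and 2, NDUFC1 among them, were lower in Toledo, where 6.94% of all genes were lower and 1.6% higher.

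Small differences in which the libraries did not overlap were common in both lines. At any fold, 35 subunit genes lay apart and higher in SU-DHL-5 and 25 apart and lower, where 41.1% and 37.3% of all genes did. In Toledo 12 lay apart and higher and 35 apart and lower, where 29.3% and 42.9% of all genes did. The Toledo ratio was below the SU-DHL-5 ratio for 64 of the 76 subunit genes and for 6016 of all 9521 genes. The median difference was -0.17 for the subunit genes, against -0.10 for all genes. Subunit genes are short, with a median length of 1026.5 bases against 3308 for all genes, and 54 of the 76 fell among the shortest eighth of genes (up to 1479 bases). In Toledo the second DMSO library was lower than the first by a median of -0.14 (log2 ratio) in this shortest class and higher by 0.30 in the longest. The median JQ1/DMSO ratio of this class was -0.041 for SU-DHL-5 against -0.14 for Toledo, and the part of length in the subunit ratios was not tested beyond the centring given at the end.

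**Figure D1:**
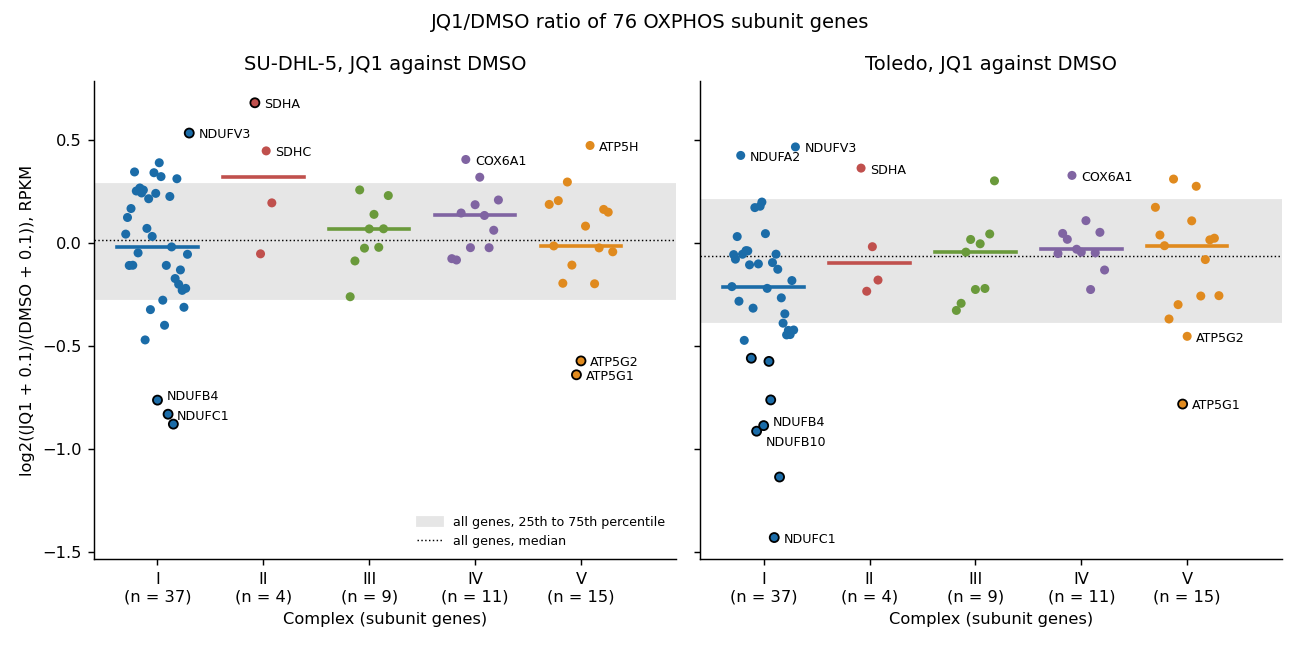
Ratio of JQ1 to DMSO, as log2((JQ1 + 0.1)/(DMSO + 0.1)) of the mean RPKM of 2 libraries, for 76 subunit genes grouped by complex (x axis) in SU-DHL-5 (left) and Toledo (right). Each point is 1 gene, points with a black edge were called, coloured bars are medians of a complex, and the grey band and dotted line are the 25th to 75th percentile and the median of all 9521 genes. Complex I holds the lowest ratios in both lines, and NDUFC1, NDUFB4 and ATP5G1, which were called in both lines, lie below the band.

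By complex, the medians in SU-DHL-5 were -0.019 for complex I, 0.32 for complex II, 0.068 for complex III, 0.13 for complex IV and -0.014 for complex V. In Toledo they were -0.21, -0.099, -0.044, -0.030 and -0.013 in the same order. Complex I had the lowest median in both lines, although in SU-DHL-5 it and complex V both stood near 0, and it held 3 of the 5 lower calls in SU-DHL-5 and 7 of the 8 in Toledo. Complex I makes up 37 of the 76 genes, and its share called lower was 8.11% (SU-DHL-5) and 18.9% (Toledo), against 14.1% and 19.1% of all genes, so that in Toledo it stood close to the share of all genes. No gene of complex III or IV was called in either line, and complex II had the single call of SDHA. The sum of RPKM over complex I went from 5357 and 5411 in the DMSO libraries of SU-DHL-5 to 5232 and 5355 in JQ1, and from 5932 and 5211 to 4668 and 4757 in Toledo. The sum over complex IV was 5787 and 4958 in the DMSO libraries of Toledo and 5454 and 5293 in JQ1, so that its libraries overlapped. The signs of the smaller medians changed with the scaling, as given at the end.

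The upstream sequences of 3 subunit genes called lower in both lines and of the 2 called higher in SU-DHL-5 are shown as a description. Whether any factor binds them in these cells was not tested. The sequences are the 250 bases before the start site in RefSeq's table (GRCh38.p14), 5′ to 3′ on the gene's strand, with matches to the letters searched in capitals. The windows were chr3:120596086-120596335 (plus strand) for NDUFB4, chr4:139302552-139302801 (minus strand) for NDUFC1, chr17:48892537-48892786 (plus strand) for ATP5G1, chr5:218070-218319 (plus strand) for SDHA and chr21:42893059-42893308 (plus strand) for NDUFV3.
NDUFB4: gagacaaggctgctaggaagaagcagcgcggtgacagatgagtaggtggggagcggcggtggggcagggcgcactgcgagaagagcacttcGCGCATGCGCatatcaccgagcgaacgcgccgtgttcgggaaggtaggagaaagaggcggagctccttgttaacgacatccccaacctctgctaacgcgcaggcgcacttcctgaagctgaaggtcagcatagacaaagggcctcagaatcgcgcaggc
NDUFC1: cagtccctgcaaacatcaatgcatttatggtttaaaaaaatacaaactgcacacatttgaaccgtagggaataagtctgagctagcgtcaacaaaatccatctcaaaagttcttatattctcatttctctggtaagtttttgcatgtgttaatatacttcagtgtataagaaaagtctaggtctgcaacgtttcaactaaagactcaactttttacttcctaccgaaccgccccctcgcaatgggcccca
ATP5G1: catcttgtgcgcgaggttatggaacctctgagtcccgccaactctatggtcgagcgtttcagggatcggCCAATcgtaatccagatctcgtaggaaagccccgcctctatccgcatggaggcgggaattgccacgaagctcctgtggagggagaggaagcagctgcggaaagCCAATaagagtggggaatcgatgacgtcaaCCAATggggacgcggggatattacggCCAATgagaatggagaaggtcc
SDHA: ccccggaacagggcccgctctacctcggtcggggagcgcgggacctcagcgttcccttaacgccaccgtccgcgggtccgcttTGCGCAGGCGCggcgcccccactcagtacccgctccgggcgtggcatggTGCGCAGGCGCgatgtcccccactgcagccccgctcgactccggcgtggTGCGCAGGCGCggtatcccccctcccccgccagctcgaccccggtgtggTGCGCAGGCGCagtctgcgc
NDUFV3: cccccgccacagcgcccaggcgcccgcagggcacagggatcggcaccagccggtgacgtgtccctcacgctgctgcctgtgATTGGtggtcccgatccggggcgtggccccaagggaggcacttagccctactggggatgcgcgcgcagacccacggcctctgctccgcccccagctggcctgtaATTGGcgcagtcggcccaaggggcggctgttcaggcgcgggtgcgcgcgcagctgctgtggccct
The capitals mark GCGCATGCGC (an NRF1 half-site and its reverse complement) in NDUFB4, CCAAT (NF-Y) in ATP5G1 and TGCGCAGGCGC in SDHA, all as written, and CCAAT on the other strand (ATTGG) in NDUFV3. NDUFC1 held none of the letters searched in this window, which is 1 of its 4 windows in the table.

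In NDUFB4 the NRF1 letters began 159 bases before the start. In ATP5G1 the 4 CCAAT matches began 181, 78, 48 and 22 bases before it. In SDHA the same 11 letters, TGCGCAGGCGC, stood 4 times at a constant spacing of 49 bases, from 167, 118, 69 and 20 bases before the start. A window with at least 4 copies of these letters was held by 2 of 27305 genes (0.00732%), SDHA among them. The letters were chosen after the SDHA window was seen, as the longest word that stood there at least 4 times. The place of SDHA in this count was thus fixed by the choice. TGCGCAGGCGC contains GCGCA, the NRF1 half-site, without matching the NRF1 letters in full. The NDUFB4 window also holds gcgcaggcgc, in lower case because it matched none of the letters searched.

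Over the full windows of 300 bases (250 before and 50 after a start, any start of a gene, both strands), 63 of the 76 subunit genes had an entry. The ETS letters CCGGAAG, the core of the GABPA site, were held by 31.7% of the subunit genes, 26.0% of 7878 genes of at least 1 RPKM with an entry and 12.2% of all 27305 genes. The YY1 letters AAGATGGC were held by 19.0%, 7.72% and 3.52%, and the NRF1 letters by 6.35%, 3.07% and 1.52%, in the same order. The E-box CACGTG, to which MYC binds with MAX, was held by 11.1%, 13.0% and 8.77%. CCAAT was held by 31.7%, 44.7% and 39.7%, and TGCGCAGGCGC by 6.35%, 3.59% and 1.56%. Of the 8 genes called lower in at least 1 line that had an entry, 1 held the E-box, 1 NRF1, 1 ETS, 2 YY1, 2 CCAAT and 0 TGCGCAGGCGC. The E-box of ATP5G1 was in the bases after the start, and the other genes with an E-box were NDUFA11, NDUFA7, NDUFS7, UQCR11, ATP5F1 and ATP5I.

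Complex I has a core of subunits that carry the flavin, the iron-sulfur clusters and the proton channels, and supernumerary subunits around it. The 30 supernumerary genes had medians of 0.097 (SU-DHL-5) and -0.10 (Toledo). Of the core genes, NDUFS1, the largest iron-sulfur subunit, was at 48.6 and 46.9 RPKM in DMSO against 45.4 and 48.9 in JQ1 in SU-DHL-5, and at 12.6 and 15.1 against 12.7 and 12.6 in Toledo, with overlapping libraries in both lines. NDUFV1, which oxidizes NADH, had ratios of -0.22 and -0.18, and its libraries lay apart in SU-DHL-5 only, a difference that was not tested. NDUFS3, NDUFS7, NDUFS8 and NDUFV2, also of the core, had ratios of -0.31 to -0.055 in SU-DHL-5 and of -0.44 to -0.27 in Toledo, and the libraries of all 4 lay apart and were lower with JQ1 in both lines, with none called. At any fold, 29.1% of all genes lay apart and lower in both lines, and NDUFS1 and NDUFV1 of the core did not.

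NDUFC1 (chr4:139289917-139302551) and NDUFB4 (chr3:120596281-120602411), small supernumerary subunits of the membrane arm, were called lower in both lines. NDUFC1 was at 45.5 and 52.6 RPKM in DMSO against 27.8 and 27.3 in JQ1 in SU-DHL-5, a ratio of -0.83 (-0.94 to -0.74). In Toledo it was at 32.9 and 31.2 RPKM against 11.0 and 12.6, a ratio of -1.43 (-1.58 to -1.30), the lowest of the subunit genes there. The transcript table divides NDUFC1 among 7 transcripts. The listed transcripts NDUFC1_1 and NDUFC1_2 traded values between libraries of 1 sample, so they were summed, and the sum went from 75.9 and 85.8 to 30.4 and 28.5 RPKM for SU-DHL-5, while Toledo went from 58.8 and 54.4 to 12.4 and 15.1. NDUFC1_6 was instead higher in JQ1, at 7.34 and 6.69 against 9.31 and 8.11 in SU-DHL-5 and at 2.55 and 2.36 against 4.05 and 3.93 in Toledo. The ratio of the whole gene therefore joins transcripts that lay apart in opposite directions.

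NDUFB4 was at 83.8 and 93.8 RPKM in DMSO against 53.7 and 51.0 in JQ1 in SU-DHL-5, a ratio of -0.76 (-0.83 to -0.69), and at 88.2 and 81.7 against 45.7 and 46.2 in Toledo, a ratio of -0.89 (-0.96 to -0.82). The 4 JQ1 libraries of the 2 lines were below all 4 DMSO libraries. Transcript NDUFB4_2 made up 99.9% of the gene's transcript RPKM.

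NDUFB10 (chr16:1959516-1961975), another supernumerary subunit of the membrane arm, was called lower in Toledo, where it was at 205 and 179 RPKM in DMSO against 95.1 and 109 in JQ1, a ratio of -0.91. In SU-DHL-5 its libraries also lay apart, at 188 and 178 against 144 and 148, with a ratio of -0.32 that missed the fold. The other 3 subunit genes called lower in Toledo alone were NDUFB8 (-0.76, with -0.40 in SU-DHL-5), NDUFB7 (-0.57, with -0.28) and NDUFA9 (-0.56, with -0.47), and all 3 lay apart and lower in SU-DHL-5 too. The NDUFB products, NDUFB4 included, lie in the part of the membrane arm far from the matrix arm. The 11 NDUFB genes did not move as a block, since their ratios in Toledo ran from -0.91 to 0.20 and 3 of them (NDUFB1, NDUFB2 and NDUFB3) lay apart and higher there. For the threshold itself, the called gene nearest to it in Toledo was NDUFA9 at -0.56 and the nearest below it was NDUFA5 at -0.47. In SU-DHL-5 these were NDUFV3 at 0.53 and ATP5H at 0.47.

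**Figure D2:**
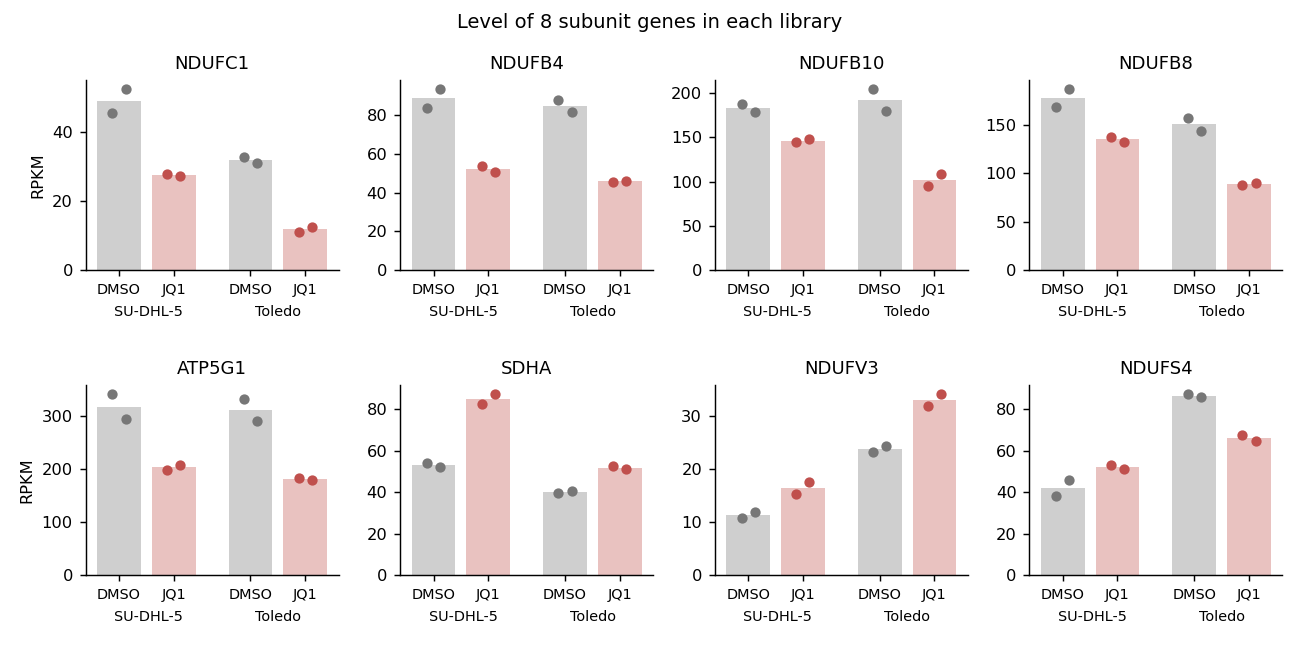
RPKM (y axis, from 0) of 8 subunit genes in each library of SU-DHL-5 and Toledo in DMSO (grey) and JQ1 (red); points are the 2 libraries of a sample and bars their mean. For NDUFB4 the 4 JQ1 libraries lie below all 4 DMSO libraries, SDHA and NDUFV3 lie higher in JQ1 within each line, and NDUFS4 lies higher in SU-DHL-5 and lower in Toledo.

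The called rise in complex I was that of NDUFV3 (chr21:42893268-42909663), a supernumerary subunit of the matrix arm known to be made in a short and a long form. It was at 10.8 and 11.9 RPKM in DMSO against 15.3 and 17.5 in JQ1 in SU-DHL-5, a ratio of 0.53 (0.40 to 0.66). In Toledo it was at 23.2 and 24.3 against 31.7 and 34.1, a ratio of 0.47 (0.38 to 0.56) that missed the fold as reported and passed it when the libraries were scaled to the median of all genes (0.53). Its transcript NDUFV3_2 went from 6.34 and 6.48 to 15.3 and 16.2 RPKM in Toledo, a ratio of 1.28, while NDUFV3_1 went from 20.2 and 21.2 to 24.3 and 26.2, a ratio of 0.29. In SU-DHL-5 the ratios of these transcripts were 0.69 and 0.50, and all 4 pairs of conditions lay apart. NDUFA2, a small matrix-arm subunit, lay apart and higher in both lines without reaching the fold, at 148 and 153 against 195 and 188 RPKM in SU-DHL-5 and at 146 and 126 against 191 and 175 in Toledo (ratios of 0.34 and 0.42).

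Complex II was the one complex whose median stood above 0 in SU-DHL-5 by more than 0.2. SDHA (chr5:218223-256700), the flavoprotein that oxidizes succinate, was at 54.1 and 52.0 RPKM in DMSO against 82.6 and 87.4 in JQ1 in SU-DHL-5, a ratio of 0.68 (0.63 to 0.73) and the highest of the subunit genes in that line. In Toledo it was at 39.9 and 40.7 against 52.7 and 51.0, a ratio of 0.36 (0.30 to 0.43), with libraries apart and below the fold. SDHB, the iron-sulfur subunit, had ratios of -0.053 and -0.23. The membrane anchors SDHC and SDHD had ratios of 0.45 and 0.19 (SU-DHL-5) and of -0.018 and -0.18 (Toledo). SDHB was thus the one gene of the 4 with overlapping libraries in SU-DHL-5, and SDHC the one in Toledo.

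In complex III, the SU-DHL-5 ratios ran from -0.26 to 0.26 and the Toledo ratios from -0.33 to 0.30. CYC1, the cytochrome c1 subunit, had the lowest ratio in both lines, at 188 and 182 against 154 and 155 RPKM in SU-DHL-5 and at 333 and 296 against 244 and 258 in Toledo. UQCRQ, a small supernumerary subunit, had the highest in Toledo, at 97.0 and 77.0 against 110 and 105 RPKM. The core proteins UQCRC1 and UQCRC2 had ratios of 0.068 and 0.14 (SU-DHL-5) and of -0.23 and -0.0038 (Toledo), and the Rieske iron-sulfur protein UQCRFS1 had ratios of -0.021 and -0.22.

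In complex IV, 9 of the 11 nuclear subunit genes had overlapping libraries in Toledo and 3 in SU-DHL-5, where 2651 and 2058 of all 9521 genes had. In Toledo 9.09% lay apart and higher and 9.09% apart and lower, against 29.3% and 42.9% of all genes. In SU-DHL-5 these shares were 54.5% and 18.2%, against 41.1% and 37.3%. The second Toledo DMSO library differed from the first by a median of -0.23 (log2 ratio) over complex IV, and its part in the overlap was not tested. COX6A1, the isoform of subunit VIa used outside muscle, lay apart and higher in both lines, at 647 and 648 against 855 and 859 RPKM in SU-DHL-5 and at 665 and 589 against 806 and 767 in Toledo (ratios of 0.41 and 0.33). COX4I1, the general isoform of subunit IV and the subunit gene of highest mean level, had ratios of -0.076 and -0.051. COX5A and COX5B, which contact the mitochondrially encoded core, had ratios of -0.082 and 0.15 (SU-DHL-5) and of 0.046 and 0.018 (Toledo).

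In complex V, the calls were of genes of a single protein. ATP5G1, ATP5G2 and ATP5G3 encode the same mature subunit c, the ring that turns in the membrane, with different import sequences. ATP5G1 (chr17:48892786-48895871) was called lower in both lines, at 341 and 293 against 199 and 208 RPKM in SU-DHL-5, a ratio of -0.64 (-0.69 to -0.58), and at 332 and 291 against 183 and 180 in Toledo, a ratio of -0.78 (-0.84 to -0.73). ATP5G2 (chr12:53665160-53676728) was at 219 and 236 against 155 and 151 RPKM in SU-DHL-5, a called ratio of -0.57 (-0.62 to -0.53), and at 520 and 467 against 348 and 373 in Toledo, where -0.45 (-0.49 to -0.43) missed the fold with libraries apart. ATP5G3 (chr2:175176258-175181762) lay apart and slightly higher in both lines, at 175 and 173 against 182 and 187 RPKM and at 96.5 and 86.3 against 98.0 and 99.0 (ratios of 0.082 and 0.11).

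Summed over the 3 genes, subunit c was at 735 and 702 RPKM in DMSO against 536 and 546 in JQ1 in SU-DHL-5, and at 949 and 844 against 628 and 652 in Toledo, ratios of -0.41 and -0.49. The share of ATP5G3 in the sum went from 23.8% and 24.7% to 34.0% and 34.2% in SU-DHL-5, while Toledo went from 10.2% in both DMSO libraries to 15.6% and 15.2%. The make-up also differed between lines, since ATP5G1 held 46.4% and 41.8% of the sum in the DMSO libraries of SU-DHL-5, while ATP5G2 held 54.8% and 55.3% in those of Toledo.

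**Figure D3:**
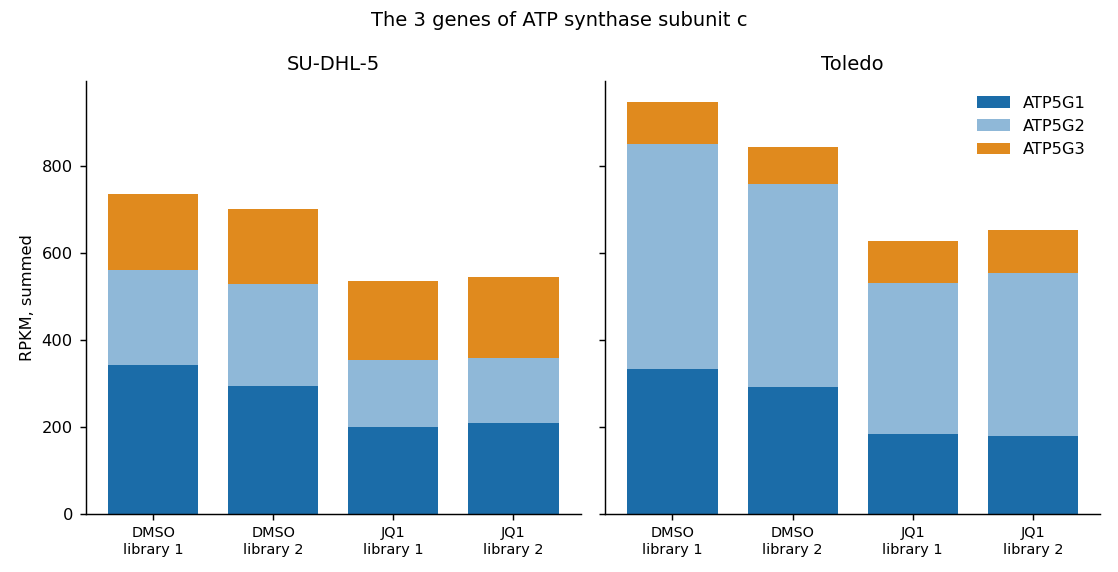
RPKM of ATP5G1, ATP5G2 and ATP5G3 (stacked, y axis from 0) in each DMSO and JQ1 library of SU-DHL-5 (left) and Toledo (right). The sum is lower in the JQ1 libraries of both lines (536 to 652 against 702 to 949 RPKM), ATP5G1 and ATP5G2 account for the fall, and ATP5G2 is the tallest part in Toledo.

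The rest of complex V moved less. ATP5A1 and ATP5B, the alpha and beta subunits of the catalytic F1 part, had ratios of 0.19 and -0.014 (SU-DHL-5) and of 0.17 and 0.039 (Toledo), and ATP5B stayed between 682 and 776 RPKM in all 8 libraries. ATP5H, the stalk subunit d, lay apart and higher in both lines (0.47 and 0.28), as did ATP5E, the small F1 subunit epsilon (0.30 and 0.31), which reached 1086 and 1057 RPKM in SU-DHL-5 with JQ1.

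Of the 19 genes of assembly and other factors, 1 was called lower (COX10) and 1 higher (ATP5S) in SU-DHL-5, and 3 lower (NDUFAF5, NDUFAF6 and COX16) and 1 higher (ATP5S) in Toledo. These shares, 5.26% lower and 5.26% higher (SU-DHL-5) and 15.8% and 5.26% (Toledo), stand beside 14.1% and 11.9%, and 19.1% and 9.05%, of all genes, and rest on 1 to 3 genes each. The medians were 0.090 and -0.076. ATP5S, a factor tied to ATP synthase, was called higher in both lines, at 4.45 and 4.59 against 6.75 and 6.57 RPKM (0.55) and at 1.93 and 2.72 against 3.71 and 3.37 (0.59). COX10, which makes heme O for complex IV, was at 8.84 and 8.58 against 6.02 and 5.97 RPKM in SU-DHL-5 (-0.53) and at 5.02 and 5.63 against 3.84 and 3.78 in Toledo (-0.47). With 1 RPKM added in place of 0.1, the SU-DHL-5 ratios of ATP5S (0.47) and COX10 (-0.47) missed the fold. The Toledo ratio of ATP5S ran from 0.30 to 0.91 over the alternatives to the processing, so it did not reach the fold under all of them. COX11 and COX17, which deliver copper to complex IV, had ratios of 0.30 and -0.14 (SU-DHL-5) and of 0.33 and -0.12 (Toledo), and NDUFAF4 of complex I assembly had ratios of -0.18 and -0.39. NDUFAF6 (-0.49 and -0.80), NDUFAF5 (-0.076 and -0.61) and COX16 (0.090 and -0.61) are named because they were called, and their values had been seen.

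The ratios of the 2 lines followed each other across genes, with Pearson's r of 0.86 and Spearman's rho of 0.78 over the 76 subunit genes, against 0.71 and 0.72 over the 9521 genes. These are correlations across genes, which are not independent replicates, and the ratios of each line rest on its own 4 libraries. Both lines called 4 of the 76 genes lower, NDUFC1, NDUFB4 and ATP5G1 among them, where 10.2% of all genes were called lower in both, and no subunit gene higher, where 5.26% of all genes were. At any fold, 20 subunit genes lay apart and lower in both lines, where 29.1% of all genes did, and 11 apart and higher, where 22.7% did. Another 7 lay apart and higher in SU-DHL-5 and lower in Toledo, where 4.79% of all genes did, and none the other way, where 2.26% did.

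**Figure D4:**
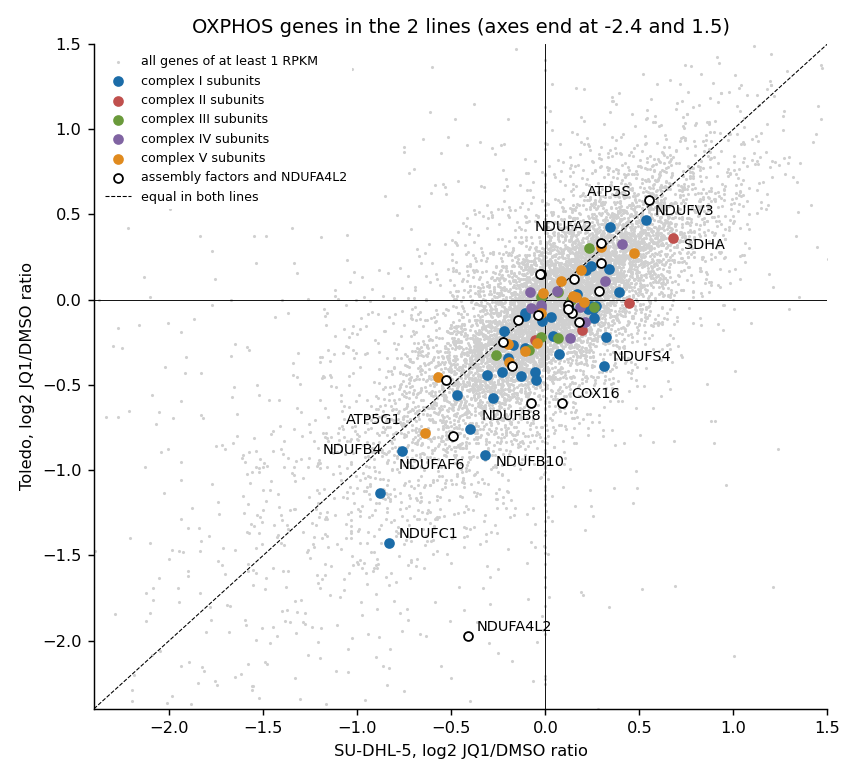
Log2 JQ1/DMSO ratio in SU-DHL-5 (x axis) and Toledo (y axis) of 96 OXPHOS genes of at least 1 RPKM, coloured by complex, over all 9521 genes in grey, of which 196 lie beyond the axes. Most OXPHOS points lie close to 0 and below the dashed line of equal ratios, NDUFC1 is the lowest subunit gene in Toledo, and NDUFS4 and COX16 are right of 0 in SU-DHL-5 and below 0 in Toledo.

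NDUFS4, a supernumerary subunit of the matrix arm, had the widest gap of those 7. It was at 38.3 and 45.7 RPKM in DMSO against 53.0 and 51.4 in JQ1 in SU-DHL-5, a ratio of 0.31, and at 87.4 and 85.8 against 67.7 and 64.5 in Toledo, a ratio of -0.39. Its level in DMSO was higher in Toledo than in SU-DHL-5 by 1.04 on the log2 scale, and the JQ1 values of the lines were closer to each other than the DMSO values.

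In DMSO, the median log2 ratio of Toledo to SU-DHL-5 was -0.15 over the subunit genes, against -0.011 for all genes. The second Toledo DMSO library itself differed from the first by a median of -0.16 over these genes. The sum of RPKM over the subunit genes was 17632.5 and 18173.1 in the DMSO libraries of SU-DHL-5 and 18623.1 and 16422.9 in those of Toledo. The Toledo sums thus lay on both sides of the SU-DHL-5 sums. The libraries of 40 genes lay apart and lower in Toledo, where 42.2% of all genes did, 16 lay apart and higher, where 42.1% did, and 20 overlapped. With a 2-fold difference, 6 were lower and 5 higher, where 13.3% and 14.4% of all genes were. NDUFB3, a supernumerary complex I subunit, was at 105 and 120 RPKM in SU-DHL-5 and at 24.1 and 24.6 in Toledo (-2.20), NDUFS1 had a ratio of -1.78, and ATP5L, subunit g of ATP synthase, was at 656 and 683 against 271 and 217 (-1.45). On the higher side, COX4I1 was at 658 and 675 RPKM in SU-DHL-5 and at 1561 and 1363 in Toledo (1.13), ATP5G2 had a ratio of 1.12 and NDUFV3 one of 1.06. The difference in NDUFB3 was also seen in JQ1, at 132 and 134 RPKM in SU-DHL-5 and at 28.3 and 27.6 in Toledo. Line and culture cannot be told apart with 1 sample each.

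**Figure D5:**
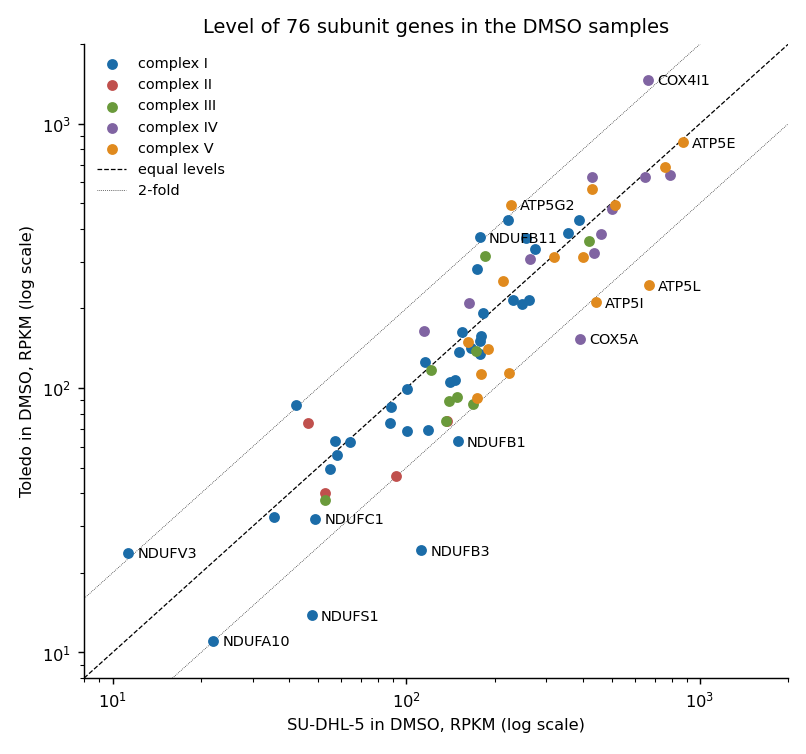
Mean RPKM of 2 DMSO libraries in SU-DHL-5 (x axis) and Toledo (y axis), both on log scales, for 76 subunit genes coloured by complex, with lines of equal levels (dashed) and 2-fold differences (dotted). NDUFB3, NDUFS1, ATP5L and COX5A lie furthest below the line of equal levels, and COX4I1, ATP5G2 and NDUFV3 lie above the upper dotted line.

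The isoform genes of complex IV known from muscle, testis or lung were nearly silent in both lines. COX6A2, COX6B2, COX7A1 and COX7B2 were listed at 0 in all libraries, COX4I2 had a value in 1 DMSO library of SU-DHL-5 (0.0664 RPKM), and COX8C was at 0.258 RPKM or less. Their general counterparts COX6A1, COX6B1, COX7A2, COX7B, COX4I1 and COX8A were at 108 RPKM or more in every library. UQCRHL, an intronless copy of UQCRH, was at 0.381 RPKM or less while UQCRH was at 331 to 449, and how reads shared by such copies were assigned is not given in the sources used here. NDUFA4L2, the paralog of NDUFA4 known from hypoxia, was the one paralog of at least 1 RPKM. It was at 2.34 and 3.20 against 2.04 and 2.08 RPKM in SU-DHL-5 (-0.41) and at 0.950 and 1.58 against 0.246 and 0.248 in Toledo, from 53 reads in DMSO to 10 in JQ1. The Toledo ratio of -1.97 had a counting interval of -3.48 to -1.35. NDUFA4 itself was at 228 and 190 against 202 and 180 RPKM there.

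The 13 mitochondrially encoded OXPHOS genes were listed at 0 in all 8 libraries, as were all 37 genes on the mitochondrial chromosome, so no statement on them can be made. Among the genes around the pathway, 37 of 40 assembly and carrier genes with other symbols were in the table. Of these, 4 were called lower and 5 higher in SU-DHL-5, and 6 lower and 2 higher in Toledo, which is 10.8% and 13.5%, and 16.2% and 5.41%, close to the 14.1% and 11.9%, and 19.1% and 9.05%, of all genes. COA7, an assembly factor of complex IV, was at 10.3 and 9.50 against 4.24 and 4.21 RPKM in SU-DHL-5 (-1.21) and at 10.7 and 12.1 against 5.26 and 5.16 in Toledo (-1.12), and TACO1, a translation activator of the mitochondrial COX1 gene, had ratios of -0.55 and -1.11. SURF1, another complex IV assembly factor, was higher in both lines, at 50.3 and 46.2 against 72.3 and 75.9 RPKM (0.62) and at 22.1 and 18.4 against 40.6 and 42.2 (1.03). CYCS, the electron carrier cytochrome c, had ratios of 0.24 and 0.12.

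Of the 13 citric acid cycle genes, which feed electrons to OXPHOS, OGDH was called higher in both lines (0.80 and 1.03), and IDH3B and SUCLG2 were called lower in Toledo (-0.52 and -0.59). Of 10 regulators of at least 1 RPKM, PPRC1, a coactivator of NRF1, was called lower in both lines, at 9.25 and 7.21 against 4.97 and 4.20 RPKM (-0.83) and at 7.50 and 8.82 against 5.49 and 5.56 (-0.55), and GABPA was called lower in Toledo (-0.63). The share called lower was 0% (citric acid cycle) and 10% (regulators) in SU-DHL-5, against 14.1% of all genes. In Toledo it was 15.4% and 20%, against 19.1%. The share called higher was 7.69% and 0% in each line, against 11.9% (SU-DHL-5) and 9.05% (Toledo) of all genes. NRF1 had ratios of -0.021 and 0.0072. MYC was at 44.1 and 40.9 against 35.2 and 34.4 RPKM in SU-DHL-5 and at 40.4 and 44.4 against 44.6 and 42.1 in Toledo, with overlapping libraries in the latter.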

How the data were processed

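Per the labels, RNA was sequenced from SU-DHL-5 and Toledo cells in DMSO or JQ1, and the treated samples' titles spell the compound JO1. For each of 4 samples, the authors deposited 2 libraries as RPKM, which they normalized to feature length and mapped reads, in 1 table of genes and 1 of transcripts. The submitters' processing notes name CASAVA 2.0 and GRCh38, while the aligner, counting and annotation are not given in the sources used here. Mapped reads per library (median 16252335) were recovered from the steps of the RPKM values of genes of a single exon, and whole reads (within 0.02) came out for 99.99% of 14944 genes with a value. The 95% intervals of a ratio come from the exact binomial (Clopper-Pearson) interval of the reads in JQ1 among all reads of the gene, adjusted for mapped reads, and hold counting error only. No count model was fitted. The least read subunit gene had 557 reads in a condition, so depth limits the paralogs more than the subunits.

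The libraries of a sample were averaged, 0.1 RPKM was added before ratios, and genes under a mean of 1 RPKM were left out of the background. The scripts were tested on simulated reads. Members, gene lists, motifs and thresholds were chosen with earlier results of these data known. Genes were named if they were in a listed set (paralogous subunits, complex II, core subunits, selected assembly factors), among the 5 lowest or 5 highest ratios of a line, the 3 highest or lowest mean levels, or the 3 largest differences between lines each way. Other named genes were chosen after their values were seen. The values of a subunit gene and of a marker that these rules would name are not reported here. Starts in the files count from 0 and 1 was added. Promoter windows are RefSeq's (GRCh38.p14), matched by symbol or synonym for 63 of 76 subunit genes. The tools were matplotlib 3.10.9, scipy 1.17.1, pandas 2.3.3 and numpy 2.4.6 under Python 3.11.15.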

Additional observations from a re-analysis of the deposited data

Results flagged for a closer look

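For 9 of the 96 genes of at least 1 RPKM, the JQ1 libraries were both above the DMSO libraries for SU-DHL-5 and both below them for Toledo. This is a larger share than the 4.79% of all genes with the same pattern, and the difference between the lines was not tested. The Toledo ratio minus the SU-DHL-5 ratio (log2) was -0.70 for NDUFS4, -0.70 for COX16, -0.54 for NDUFB6, -0.37 for SDHD, -0.36 for NDUFA8, -0.36 for COX7B, -0.31 for NDUFAF3, -0.29 for UQCRC1 and -0.18 for NDUFA10. Of these 9 genes, COX16 in Toledo was the one that reached the fold of a call. In Toledo alone, the difference between the DMSO libraries had a median of -0.16 over the subunit genes, and its part in these gaps was not tested.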

How the results depend on the processing

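Of 117 values of 17 results under alternatives, 89 stayed within the spread between libraries or within 1.5 times of a count, and no ratio of a called gene that was named by the rule changed sign. With JQ1 values scaled to the median of all genes (1.01 for SU-DHL-5, 0.954 for Toledo), the median of the subunit genes in SU-DHL-5 was 0.035, that of complex I -0.036 and that of complex V -0.031 there and 0.055 in Toledo. Centred on genes of like length, the medians in SU-DHL-5 were 0.073 for all subunits, 0.018 for complex I and 0.054 for complex V, and in Toledo 0.016 for complex II, 0.070 for complex V and -0.0014 for all subunits. The higher calls in Toledo were 1 with scaling, 1 with centring and 1 with the transcript table, in place of 0. With centring, 4 of the 5 lower calls in SU-DHL-5 and 7 of the 8 in Toledo remained. At a ratio of at least 1, the calls in SU-DHL-5 were 0 lower and 0 higher, and 2 were lower in Toledo. Without the fold, 25 were lower and 35 higher in SU-DHL-5 and 35 lower and 12 higher in Toledo.

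With 1 library of each condition, or without 1 DMSO library of Toledo (an alternative chosen after seeing the data), the ranges were as follows. In SU-DHL-5 the median was 0.050 to 0.062, that of complex I -0.012 to 0.0095, that of complex V 0.045 to 0.058, and the higher calls 2 to 5. In Toledo the median of complex III was -0.15 to -0.030, that of all subunits -0.17 to -0.021, the lower calls 7 to 13 and the higher calls 0 to 1. The lower calls were 13 without the second DMSO library and 8 without the first. No paired analysis was possible because there was 1 sample per condition and the result comes from no test.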
